A study of Homo sapiens with 6 samples.

Results

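The 48 genes described here encode proteins that repair damaged DNA or signal its presence. They were taken by name from the protein-coding rows of a table of 58735 genes, and every one of them was found and passed the filter on low counts. They cover homologous recombination (11 genes), the Fanconi anaemia pathway (12), nucleotide excision repair (10), translesion synthesis (4), checkpoint kinases (4), non-homologous end joining (4), mismatch repair (2) and PARP1. MG63, an established human osteosarcoma line, was transfected with an siRNA that targets FUBP1 in 3 samples (siFUBP1) and with the negative control in 3 others (siMock), and its RNA was sequenced after 48 h. The study asked how FUBP1, a DNA-binding regulator of transcription, bears on resistance to lobaplatin, a platinum drug, and the labels name no drug for these 6 samples. Which of the study's FUBP1 siRNAs was sequenced is not stated in the sources used here. Nothing in the labels says that the 3 samples of a group came from separate cultures, so p-values measure the spread between these samples, which may be technical.

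Platinum drugs tie the bases of DNA to each other. Nucleotide excision repair cuts out links within a strand, while the Fanconi anaemia pathway, translesion polymerases and homologous recombination act in turn on links between strands. ATR and ATM, through CHEK1 and CHEK2, hold the cell cycle while repair proceeds, mismatch repair corrects replication errors and senses some platinum adducts, and end joining rejoins broken ends without a template.

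Total counts lay between 16309900 and 17484313 per sample. FUBP1 itself had 237, 255 and 274 CPM (counts per 1000000 reads, scaled by TMM) in siMock and 44.4, 43.4 and 53.04 in siFUBP1, a log2 fold change of -2.44 ± 0.09 (SE) that left 18.4% of the control level (edgeR quasi-likelihood test, adjusted p = 1.9e-17). The line was checked against markers of the osteoblast lineage, and most of them were absent: COL1A2, a collagen chain of bone, had 0 counts in every sample, and SPARC, ALPL, SP7 and BGLAP were too low to be tested. COL1A1 fell from 113 ± 4.67 to 45.5 ± 0.15 CPM (SD, n = 3, edgeR adjusted p = 1.8e-13), VIM rose from 149 ± 9.05 to 194 ± 17 CPM (adjusted p = 2.1e-04), and RUNX2, a transcription factor of the lineage, rose from 0.448 ± 0.056 to 4.05 ± 1.7 CPM (adjusted p = 4.5e-08). The summed level of these 8 markers was 257.1 to 273 CPM in siMock and 235 to 262 CPM in siFUBP1. Of the markers of other tissues, the keratin gene KRT18 reached 674 to 753 CPM in siMock and 432 to 454 CPM in siFUBP1. Nearly all of the summed level of the 4 epithelial markers came from KRT18, and EPCAM, CDH1 and KRT19 added little. That sum was 679 to 758 CPM in siMock and 437 to 460 CPM in siFUBP1. The 5 blood markers summed to at most 3.98 CPM, and the 3 endothelial markers to at most 5.18 CPM. The part of these markers in the results below was not tested, and the cells are called by their label only.

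Repair genes moved in both directions after FUBP1 knockdown, and most moved little. Of the 48 genes, 17 were lower and 12 were higher in siFUBP1 at an adjusted p below 0.05, and 19 did not pass. The background was wide: among all 16116 genes tested 60.2% passed, 30.1% lower and 30.1% higher, against 60.4% of the repair genes, 35.4% lower and 25.0% higher. The share that passed was therefore close to that of any gene. The size of the change was smaller: the median absolute log2 fold change was 0.289 for the repair genes and 0.442 for all genes tested, and 1 repair gene, FANCA, passed with more than a 2-fold change (2.08%), against 17.3% of all genes. All genes tested include genes that do not code for protein and genes of low counts. In a fit limited to a mean of at least 50 counts, 931 of 12361 genes were lower and 731 higher by more than 2-fold. The part of count level in the smaller size was not tested. CPM, which depend on the scaling, did not overlap between the groups for 29 of the 48 genes (60.4%), against 63.9% of all genes. With libraries scaled by their totals alone, 11 repair genes were lower and 15 higher, so the balance of the directions depends on the scaling: BARD1, PARP1, FANCG, FANCL, BRIP1 and XRCC5 then no longer passed, and ERCC1, ATM and XRCC6 passed as higher. In bulk RNA, fewer cells of a kind and less RNA per cell cannot be told apart.

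**Figure D1:**
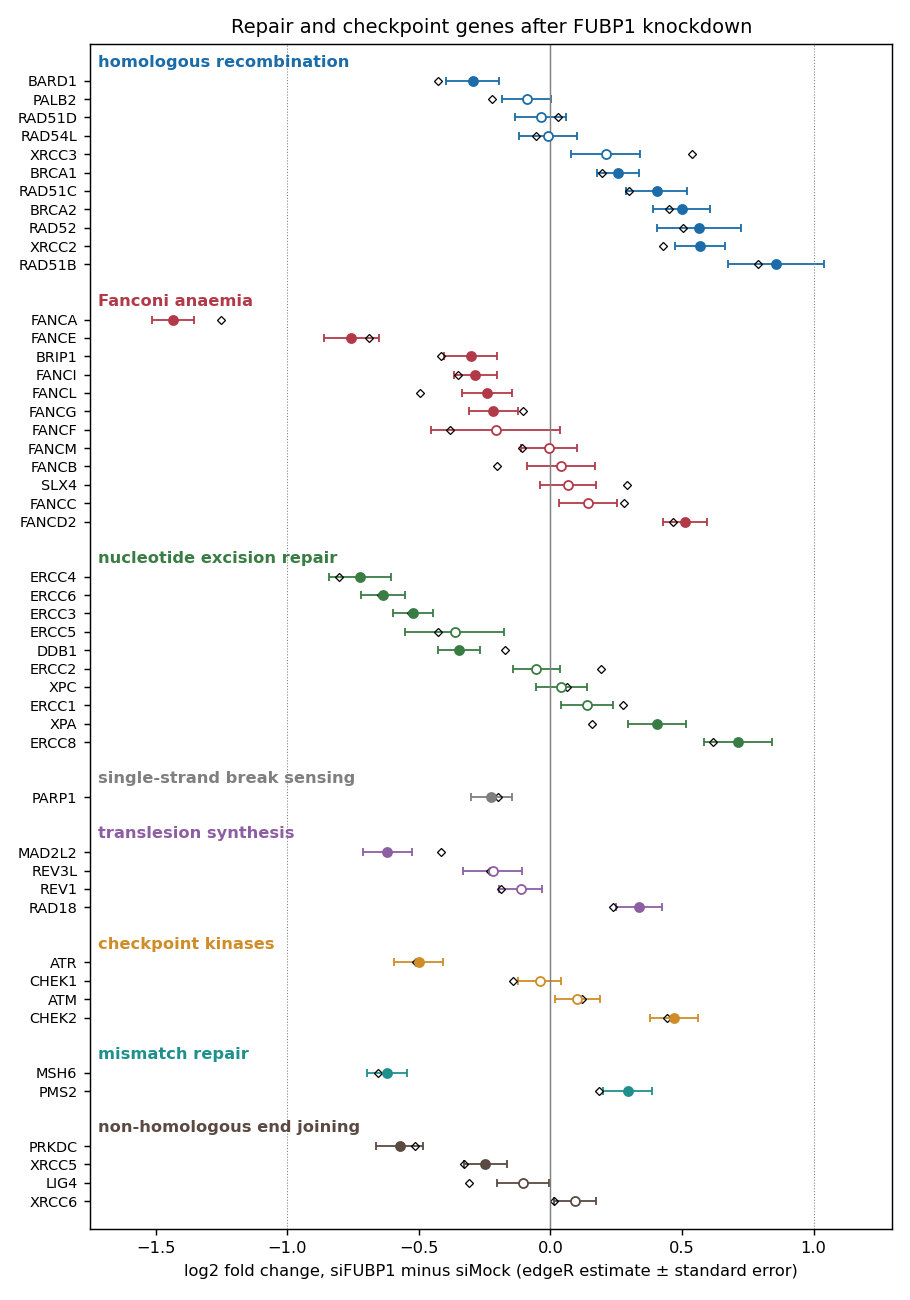
The log2 fold change (siFUBP1 minus siMock) of each of the 48 genes by role, with its standard error, over 3 samples per group. Filled circles passed at an adjusted p below 0.05, open circles did not, and open diamonds give the value after a smooth trend on GC content and length was removed. FANCA lies past -1. To the right of 0, 6 of the 11 recombination genes are filled, and 6 of the 12 Fanconi genes are filled to the left. Among all genes tested 30.1% passed as higher and 30.1% as lower.

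**Figure D2:**
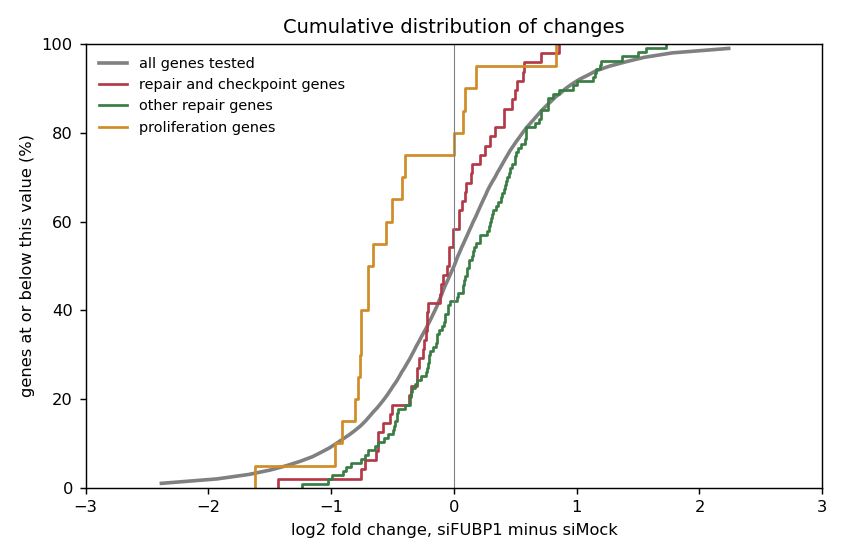
The share of genes (%) at or below each log2 fold change, for the 48 repair and checkpoint genes, 107 tested other repair genes, 20 proliferation genes and all 16116 genes tested. The curve of the 48 genes is steeper than that of all genes, with quartiles of -0.298 and 0.221 against -0.446 and 0.437, and the proliferation genes lie to the left.

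Promoters are shown first for 3 genes that moved, because they share 1 short string near the start of transcription while moving in opposite directions. They are the RefSeq windows on GRCh38.p14 from 250 bases before to 50 bases after the annotated start, and 45 of the 48 genes had one. Capitals mark TTTCCCGC or its reverse complement GCGGGAAA, a form of the site of the E2F factors that act at the onset of DNA replication, and, in MSH6, also ATTGG, the reverse complement of CCAAT, the core of the NF-Y site.
XRCC2 (chr7:152676092-152676391, minus strand): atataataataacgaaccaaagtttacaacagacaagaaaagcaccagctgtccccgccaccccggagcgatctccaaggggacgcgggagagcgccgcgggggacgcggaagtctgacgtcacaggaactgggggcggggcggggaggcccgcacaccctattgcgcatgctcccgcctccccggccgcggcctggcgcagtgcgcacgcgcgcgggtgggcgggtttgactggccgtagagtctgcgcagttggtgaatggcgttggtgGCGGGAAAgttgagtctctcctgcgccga
FANCD2 (chr3:10026187-10026486, plus strand): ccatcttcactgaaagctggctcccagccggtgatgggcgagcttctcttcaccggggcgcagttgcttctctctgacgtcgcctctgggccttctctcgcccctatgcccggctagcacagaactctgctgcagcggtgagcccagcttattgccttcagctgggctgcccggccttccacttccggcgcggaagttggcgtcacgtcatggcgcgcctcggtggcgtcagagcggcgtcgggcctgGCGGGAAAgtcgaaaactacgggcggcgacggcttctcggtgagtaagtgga
MSH6 (chr2:47782895-47783194, plus strand): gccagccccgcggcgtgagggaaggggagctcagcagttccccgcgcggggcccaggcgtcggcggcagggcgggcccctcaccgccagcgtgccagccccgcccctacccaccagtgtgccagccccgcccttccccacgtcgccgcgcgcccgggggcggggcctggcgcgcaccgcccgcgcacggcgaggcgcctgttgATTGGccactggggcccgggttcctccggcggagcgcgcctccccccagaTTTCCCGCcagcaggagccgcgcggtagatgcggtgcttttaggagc
The E2F string began 21 bases after the start in XRCC2, 2 bases before it in FANCD2 and 3 bases after it in MSH6. The first pair rose and MSH6 fell, as described below. The strings TTTGGCGC, TTTCCCGC and TTTCGCGC were searched on both strands, and 6 of the 45 promoters (13.3%) held at least 1 of them, against 4.51% of the promoters of genes tested and 2.79% of all RefSeq promoters. The other 3 were FANCC, XPC and XRCC6, none of which passed the test. CCAAT was in 15 of the 45 (33.3%), against 36.6% of the promoters of genes tested, and TTTGAA, a string of the cell-cycle homology region, in 3 (6.67%), against 9.33%. Both were searched on both strands, and overlaps between strings were not removed.

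Homologous recombination copies the intact sister DNA into a break. Of its 11 genes 6 rose, 1 fell and 4 did not pass, with a median log2 fold change of 0.26. Thus 63.6% passed, against 60.2% of all genes tested, of which 30.1% were higher and 30.1% lower. RAD51B, which helps recombination to begin, had 4.47, 3.53 and 4.93 CPM in siMock and 8.82, 6.51 and 8.08 CPM in siFUBP1. The groups did not overlap, and the log2 fold change of 0.86 ± 0.18 was the largest rise among the 48 genes (edgeR adjusted p = 2.2e-04), at 60 to 149 reads per sample. XRCC2, which acts in a complex with RAD51B, rose from 31.8, 34.7 and 41.2 CPM to 52.2, 51.3 and 56.1 CPM (log2 fold change 0.57 ± 0.10, edgeR adjusted p = 1.3e-05). Its groups did not overlap.

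BRCA2, a mediator that acts on resected DNA, had 19.2, 24.6 and 27.4 CPM in siMock and 32.3, 33.4 and 34.8 CPM in siFUBP1. It rose in all 3 siFUBP1 samples, by 0.50 ± 0.11 on the log2 scale (edgeR adjusted p = 3.1e-04). RAD52, which anneals single strands, rose by 0.56 ± 0.16 (edgeR adjusted p = 0.0033), and RAD51C, of the same complex as RAD51B, by 0.40 ± 0.12 (adjusted p = 0.0041). BRCA1, which promotes the resection of broken ends, had 84.7, 80.1 and 89.98 CPM in siMock and 95.6, 103.7 and 105.0 CPM in siFUBP1. The gap between the groups was narrow, and the rise of 0.26 ± 0.08 (edgeR adjusted p = 0.0067) no longer passed without siMock replicate 2 (0.22, adjusted p = 0.057). BARD1, the partner of BRCA1 in its ubiquitin ligase, went the other way. It had 25.8, 28.9 and 29.4 CPM in siMock and 22.4, 21.4 and 24.6 CPM in siFUBP1 (log2 fold change -0.30 ± 0.10, edgeR adjusted p = 0.013). That call was lost without siMock replicate 2 (adjusted p = 0.056), without siFUBP1 replicate 1 (0.054) and without siFUBP1 replicate 2 (0.0693). PALB2, the bridge between BRCA1 and BRCA2, RAD51D and RAD54L, a motor protein that moves along DNA, had log2 fold changes of -0.09 to -0.01 and did not pass. LRRC41, on the opposite strand, shares 25.1% of the exonic bases of RAD54L and fell (-0.92, edgeR adjusted p = 1.8e-10). XRCC3 was at 30.3, 28.3 and 24.8 CPM in siMock and at 30.3, 40.3 and 25.8 CPM in siFUBP1. Its value of 0.21 ± 0.13 did not pass (adjusted p = 0.18), but did without siFUBP1 replicate 3 (0.35, adjusted p = 0.016), and 76.7% of its exonic bases are also those of KLC1 on the opposite strand.

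**Figure D3:**
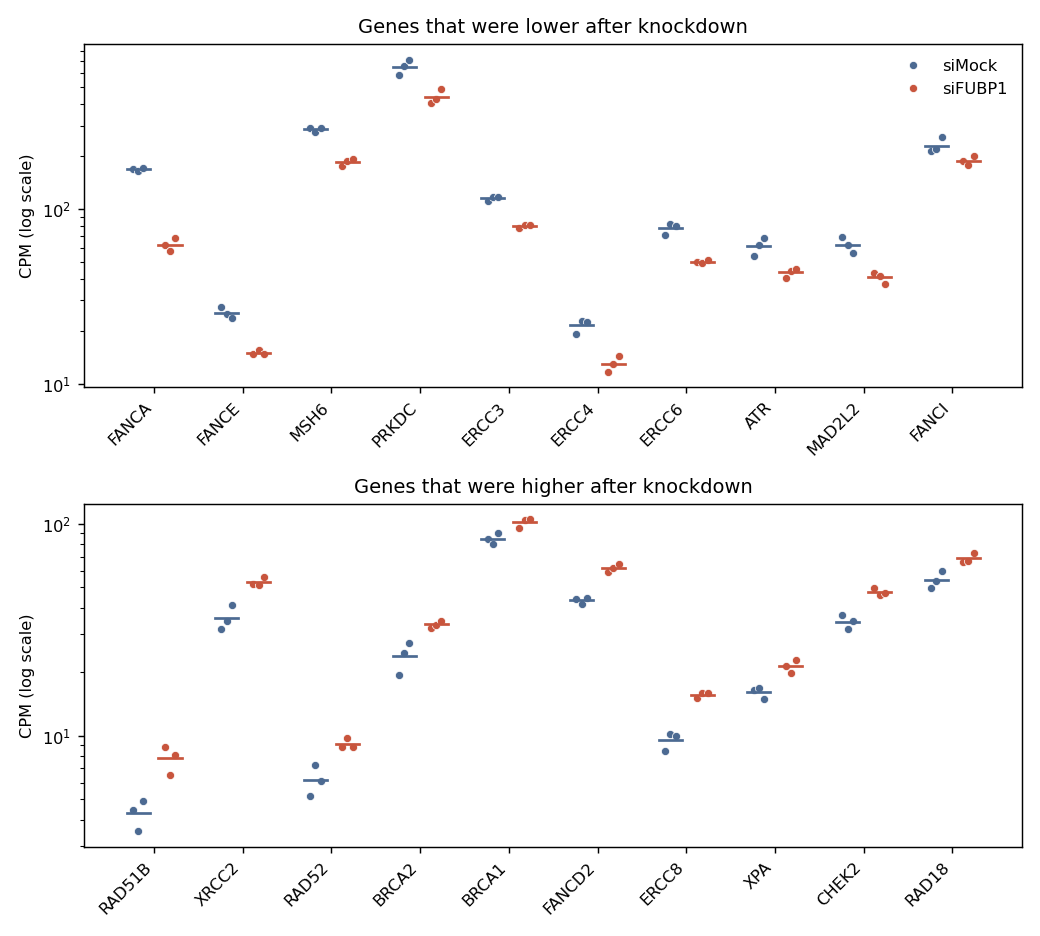
CPM on a log axis in each of the 3 siMock (blue) and 3 siFUBP1 (red) samples for 10 genes that were lower and 10 that were higher, with a line at each group's mean. In every gene drawn the groups do not overlap; FANCA has the widest gap, from 164 to 172 CPM in siMock to 57.5 to 67.9 CPM in siFUBP1.

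Among the Fanconi anaemia genes 6 of 12 fell, 1 rose and 5 did not pass, with a median log2 fold change of -0.21. The share that passed was 58.3%, against 60.2% of all genes tested. The core complex of this pathway is a ubiquitin ligase, and FANCA is a subunit of it. FANCA (chromosome 16, 89737549 to 89816657, minus strand, GRCh38) had 169.8, 164 and 172 CPM in siMock and 61.9, 57.5 and 67.9 CPM in siFUBP1. No other of the 48 genes fell as far: 37.0% of the control level remained (log2 fold change -1.43 ± 0.08, edgeR adjusted p = 4.5e-14), and under the alternatives tried the value lay between -1.50 and -1.25. ZNF276, on the opposite strand, shares 23.6% of the exonic bases of FANCA and did not pass (log2 fold change -0.07, adjusted p = 0.55). FANCE, the core subunit that contacts FANCD2, fell from a mean of 25.4 ± 1.83 CPM (SD, n = 3) to 15.1 ± 0.401 CPM (log2 fold change -0.76 ± 0.11, edgeR adjusted p = 8.6e-07).

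The other genes that fell changed less. FANCI, which is ubiquitinated together with FANCD2, fell by 0.29 on the log2 scale (edgeR adjusted p = 0.0043), and BRIP1, a helicase that binds BRCA1, by 0.30 (adjusted p = 0.011). FANCL, the catalytic subunit of the ligase, had a log2 fold change of -0.24 (adjusted p = 0.032), -0.50 after the correction for GC content and length (adjusted p = 6.5e-06) and -0.14 with library totals (adjusted p = 0.20). FANCG, a core subunit, had -0.22 (adjusted p = 0.047). The FANCG groups overlapped. These last calls depended on single libraries: BRIP1 did not pass without siFUBP1 replicate 1 (adjusted p = 0.081), and FANCL without siMock replicate 3 (adjusted p = 0.12), without siFUBP1 replicate 1 (0.20) and without siFUBP1 replicate 2 (0.073). Among the fits that left out 1 library, FANCG passed only without replicate 3 of either group, with an adjusted p of 0.11 and 0.17 without siMock replicates 1 and 2 and 0.12 and 0.19 without siFUBP1 replicates 1 and 2, and it did not pass by DESeq2 (adjusted p = 0.066). Without siFUBP1 replicate 1, 3 Fanconi genes were lower in place of 6. FANCB, FANCC, FANCF, FANCM and SLX4, a scaffold for nucleases, lay between -0.21 and 0.14 and did not pass.

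FANCD2 was the exception. It is the protein that the core complex marks with ubiquitin, and it had 44.1, 41.8 and 44.5 CPM in siMock and 59.0, 61.8 and 64.8 CPM in siFUBP1. Every siFUBP1 sample lay above every siMock sample (log2 fold change 0.51 ± 0.08, edgeR adjusted p = 9.3e-06). FANCD2 thus rose while FANCI fell: within a sample, the log2 ratio of FANCD2 to FANCI was -2.28, -2.39 and -2.54 in siMock and -1.67, -1.53 and -1.64 in siFUBP1, a difference of 0.79.

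In nucleotide excision repair 4 of 10 genes fell, 2 rose and 4 did not pass, with a median log2 fold change of -0.20. As a share, 60.0% passed, against 60.2% of all genes tested. ERCC4, the catalytic subunit of the nuclease that cuts 5′ of the damage, had 19.4, 22.9 and 22.5 CPM in siMock and 11.7, 13.0 and 14.4 CPM in siFUBP1. The groups were well apart (log2 fold change -0.72 ± 0.12, edgeR adjusted p = 7.8e-06), the largest fall of this group. ERCC1, its partner, was at 35.8, 30.0 and 28.9 CPM in siMock and 33.3, 37.8 and 33.2 CPM in siFUBP1. These groups overlapped (0.14 ± 0.10, adjusted p = 0.24). ERCC3, a helicase of TFIIH, the complex that opens the DNA, fell by 0.52 ± 0.08 (adjusted p = 1.4e-06), whereas ERCC2, the other TFIIH helicase, had a log2 fold change of -0.05 (adjusted p = 0.62).

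The genes that couple excision repair to transcription moved apart. ERCC6, which recognises a stalled RNA polymerase, fell from a mean of 77.5 ± 5.93 CPM to 49.9 ± 1.23 CPM (log2 fold change -0.64 ± 0.08, edgeR adjusted p = 3.2e-07). ERCC8, which is part of a ubiquitin ligase, had 8.46, 10.1 and 9.99 CPM in siMock and 15.0, 15.9 and 15.9 CPM in siFUBP1. Its rise of 0.71 ± 0.13 (adjusted p = 3.0e-05) was the largest in excision repair, and the pseudogene GNL3LP1 on the same strand shares 28.3% of its exonic bases. GNL3LP1 rose as well (1.73, edgeR adjusted p = 0.005), at 55 counts over the 6 samples. DDB1, the adaptor of the ligases that hold ERCC8 or the damage sensor DDB2, fell by 0.35 ± 0.08 (adjusted p = 5.7e-04), and by 0.17 after the correction for GC content and length (adjusted p = 0.028). XPA, which checks the lesion, rose by 0.41 ± 0.11 (adjusted p = 0.0024), and by 0.16 after the same correction, where it did not pass (adjusted p = 0.20).

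XPC, the sensor of distorted DNA, was at 28.0, 30.5 and 31.8 CPM in siMock and 32.5, 27.8 and 32.6 CPM in siFUBP1. The groups overlapped (0.04 ± 0.10, edgeR adjusted p = 0.73). ERCC5, the nuclease on the 3′ side, was at 5.50 ± 0.261 and 4.27 ± 0.827 CPM (SD, n = 3). Its value of -0.36 ± 0.19 did not pass (adjusted p = 0.099) although the groups did not overlap, and it did pass without siFUBP1 replicate 3 (-0.53, adjusted p = 0.032). A readthrough gene shares 63.2% of its exonic bases, so reads counted on ERCC5 are uncertain. PARP1, which marks single-strand breaks with poly(ADP-ribose), had 272, 277 and 270.2 CPM in siMock and 224, 225 and 253 CPM in siFUBP1. Every siFUBP1 sample was lower (log2 fold change -0.22 ± 0.08, adjusted p = 0.014), but the adjusted p was 0.055 without siMock replicate 2, 0.084 without siFUBP1 replicate 1 and 0.060 without siFUBP1 replicate 2.

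Translesion synthesis, in which specialised polymerases copy past a lesion, had 1 gene lower, 1 higher and 2 that did not pass. MAD2L2, the small subunit that joins the polymerase REV3L to REV1 and also acts in end joining, had 68.8, 62.7 and 55.9 CPM in siMock and 43.1, 41.4 and 37.5 CPM in siFUBP1. It fell in all 3 samples by 0.62 ± 0.09 on the log2 scale (edgeR adjusted p = 2.2e-06). RAD18, the ligase that marks PCNA for the polymerase switch, had 49.6, 53.4 and 59.8 CPM in siMock and 66.1, 66.6 and 73.0 CPM in siFUBP1. It rose by 0.34 ± 0.09 (adjusted p = 0.0016). REV3L had a value of -0.22 ± 0.11 and did not pass (adjusted p = 0.091), but did without siMock replicate 1 (-0.34, adjusted p = 0.0080) or siFUBP1 replicate 3 (-0.34, adjusted p = 0.012), and REV1 was at -0.11 (adjusted p = 0.24).

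Of the 4 checkpoint kinases 1 fell, 1 rose and 2 did not pass. ATR, which answers single-stranded DNA at stalled forks, had 53.6, 62.2 and 68.3 CPM in siMock and 40.1, 44.3 and 45.6 CPM in siFUBP1. It fell to 70.6% of the control level (log2 fold change -0.50 ± 0.09, edgeR adjusted p = 5.1e-05). CHEK1, its effector, was at 69.8, 75.8 and 82.9 CPM in siMock and 74.3, 73.6 and 74.3 CPM in siFUBP1. The groups overlapped (-0.04 ± 0.08, adjusted p = 0.69). ATM, which answers broken ends, was at 119.9, 138 and 147 CPM in siMock and 134, 144 and 156 CPM in siFUBP1 and did not pass (0.10 ± 0.08, adjusted p = 0.31). CHEK2, the effector of ATM, had 36.9, 31.9 and 34.8 CPM in siMock and 49.9, 46.2 and 47.3 CPM in siFUBP1. It rose in all 3 samples, to 138% of the control level (log2 fold change 0.47 ± 0.09, adjusted p = 6.5e-05).

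MSH6, which recognises a mismatched base, had 289.9, 276 and 292 CPM in siMock and 177, 187 and 193 CPM in siFUBP1. The samples of each group lay close together, and the fall of 0.62 ± 0.08 on the log2 scale had the second smallest adjusted p of the 48 genes (edgeR, 8.4e-08). FBXO11, which shares 16.2% of the exonic bases of MSH6 on the opposite strand, rose (0.41, adjusted p = 1.2e-04). PMS2, the nuclease subunit that acts after recognition, had 33.3, 30.7 and 35.9 CPM in siMock and 40.0, 39.1 and 43.2 CPM in siFUBP1 (log2 fold change 0.29 ± 0.09, adjusted p = 0.0080). It did not pass without siMock replicate 2 (0.24, adjusted p = 0.063), and it was 0.18 after the correction for GC content and length (adjusted p = 0.048). PMS2 has 11 pseudogene rows in the table with 5413 counts over the 6 samples, against 3735 for the gene itself, so its level is uncertain.

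In non-homologous end joining 2 of 4 genes fell and none rose. PRKDC, the kinase that holds broken ends together, had 582, 655 and 716 CPM in siMock and 403, 427 and 484 CPM in siFUBP1. It fell to 67.2% of the control level (log2 fold change -0.57 ± 0.09, edgeR adjusted p = 3.6e-06). XRCC5, a subunit of the Ku ring that PRKDC binds, was at 349, 361 and 409 CPM in siMock and 324, 291 and 328 CPM in siFUBP1. Its fall of 0.25 ± 0.08 (adjusted p = 0.011) was lost without siMock replicate 3 (0.07) or siFUBP1 replicate 2 (0.068). XRCC6, the other Ku subunit, and LIG4, the ligase of the last step, had log2 fold changes of 0.09 and -0.10 and did not pass. With libraries scaled by their totals XRCC6 did pass as higher (0.19, adjusted p = 0.034), and XRCC5 did not pass (-0.15, adjusted p = 0.095).

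Partner genes were compared by their log2 ratio within each sample, which does not depend on how libraries are scaled. Among 9 pairs, 7 had ratios that did not overlap between the groups. No share over other pairs of genes was computed, and among single genes 63.9% of all those tested did not overlap. The widest shifts were ERCC1 to ERCC4, up by 0.87 (1.82-fold), and FANCD2 to FANCI, up by 0.79 (1.73-fold). BRCA2 to PALB2 rose by 0.61 and BRCA1 to BARD1 by 0.55. ERCC2 to ERCC3 differed by 0.47, ATR to CHEK1 by -0.46, and XRCC5 to XRCC6 by -0.34, where the siMock ratios spanned -0.10 to -0.02 and the siFUBP1 ratios -0.44 to -0.34. ATM to CHEK2 (-0.37) and REV3L to MAD2L2 (0.40) overlapped between the groups. With 3 samples against 3 the two-sided exact permutation test cannot go below p = 0.10, which each of the 7 pairs reached (Benjamini-Hochberg 0.129 over 9 pairs), so this test cannot pass a threshold of 0.05 for any of them.

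**Figure D4:**
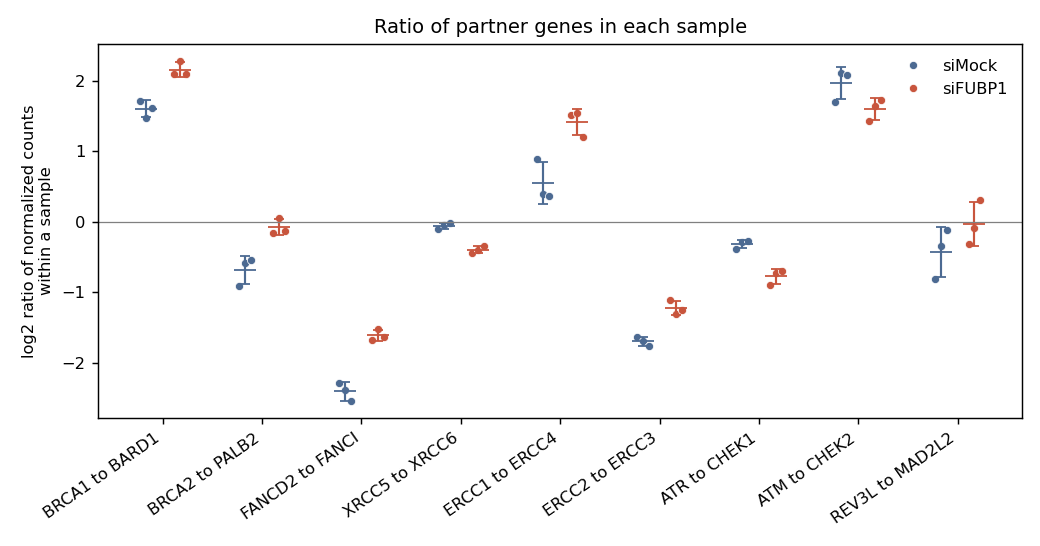
The log2 ratio of normalised counts of partner genes in each of the 3 siMock (blue) and 3 siFUBP1 (red) samples, with group means and SD. FANCD2 to FANCI moves from -2.40 to -1.61 and ERCC1 to ERCC4 from 0.55 to 1.41, while the groups of ATM to CHEK2 and of REV3L to MAD2L2 overlap.

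Per length of gene, the levels spanned a wide range. The length is that of all annotated exons of a gene together, such as 13950 bases for DDB1, and not of 1 transcript, so the order also depends on the annotation. In siMock, XRCC6 stood highest at 116 ± 6.9 FPKM (fragments per kilobase and per 1000000 reads, SD, n = 3), followed by XRCC5 at 67.5 ± 5.6, PRKDC at 41.8 ± 4.3, PARP1 at 37.7 ± 0.60 and DDB1 at 29.9 ± 1.3 FPKM. DDB1 and FANCI, at 29.4 ± 3.0 FPKM, differed by less than their spread, and so did PRKDC and PARP1. RAD51B (0.570 ± 0.093 FPKM), ERCC5 (0.660 ± 0.030) and FANCF (1.09 ± 0.22) were the lowest. FANCA stood ninth in siMock at 17.1 ± 0.37 FPKM and had 6.37 ± 0.52 FPKM in siFUBP1.

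**Figure D5:**
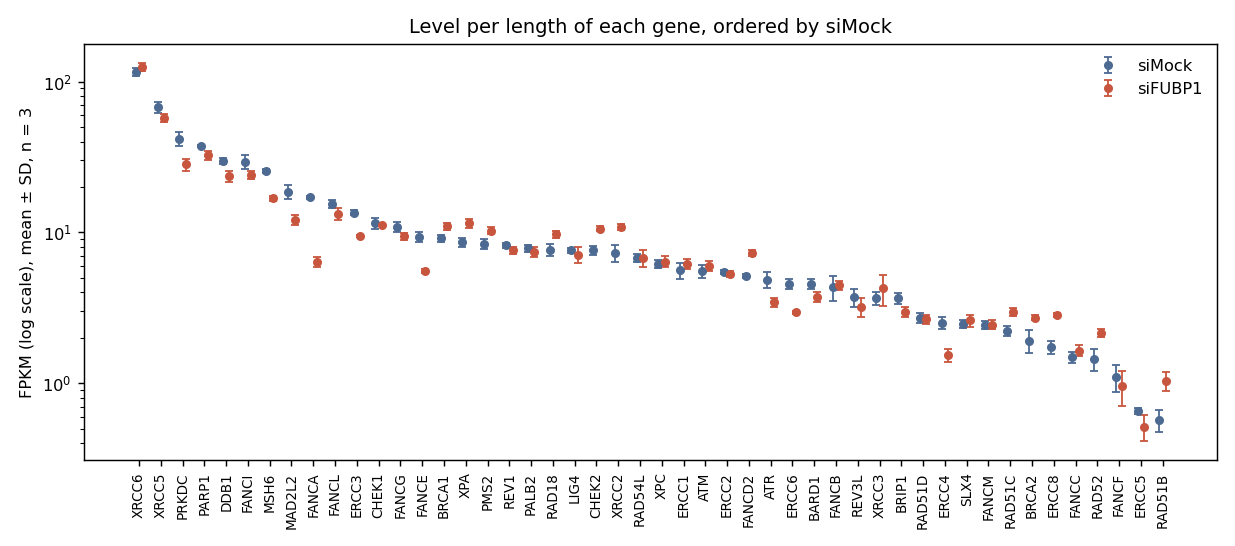
FPKM (log axis, mean ± SD, n = 3) of the 48 genes in siMock (blue) and siFUBP1 (red), ordered by the siMock level. The siMock levels run from 116 FPKM for XRCC6 to 0.570 FPKM for RAD51B, and FANCA, in ninth place, shows the widest gap between the groups.

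Other genes of the same pathways were read from a list of 109, of which 107 were tested. Among these 28 fell and 43 rose (66.4% passed, against 60.2% of all genes), with a median log2 fold change of 0.12 against -0.05 for the 48 genes, and 2 fell and 10 rose by more than 2-fold. The genes named here are among the 3 largest rises and falls that passed in each part of that list. In other nucleotide excision repair 8 of 13 tested genes rose and none fell. GTF2H3, a subunit of TFIIH, had 27.1 ± 1.98 CPM in siMock and 76.4 ± 6.42 CPM in siFUBP1 (SD, n = 3, edgeR adjusted p = 3.0e-13), while the TFIIH helicase ERCC3 fell. GTF2H2, also of TFIIH, rose by 1.19 on the log2 scale (adjusted p = 2.7e-07), a value that is uncertain because the gene has near-identical copies.

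Other recombination and resection genes split, with 10 of 25 higher and 7 lower (68.0% passed, against 60.2% of all genes). SWI5 and SFR1, which form a complex, rose by 1.15 and 0.71 (edgeR adjusted p = 3.0e-11 and 1.4e-05), and EME1, a subunit of a junction-cutting nuclease, by 0.97 (adjusted p = 4.3e-08). MRE11, the nuclease that starts resection, fell by 1.02 (adjusted p = 1.6e-10), GEN1, another junction nuclease, by 0.57 and RAD51AP1 by 0.48. Of 9 other Fanconi and crosslink genes 3 fell and 1 rose (44.4% passed). FAAP100 and CENPX, which bind the core complex, fell by 0.99 and 0.64 (adjusted p = 1.7e-09 and 3.4e-07), and UBE2T, the ubiquitin-conjugating enzyme of FANCL, fell by 0.49 (adjusted p = 2.4e-05), in the direction of FANCA and FANCE. DCLRE1A, a crosslink nuclease, had a log2 fold change of 0.27 (adjusted p = 0.021), which did not pass without siMock replicate 1 (0.21, adjusted p = 0.11) or after the correction for GC content and length (0.12, adjusted p = 0.26).

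With all samples and TMM scaling, 16 of 16 genes of other checkpoint signalling passed, 10 lower and 6 higher. Among all genes tested 60.2% passed. TOPBP1, an activator of ATR and 1 of the 10 (-0.26), did not pass with library totals (-0.17, adjusted p = 0.078), without siMock replicate 3 (-0.20, adjusted p = 0.055) or without siFUBP1 replicate 2 (-0.18, adjusted p = 0.083), and it is named here after its values were seen. RAD9A, a subunit of the clamp that activates ATR, fell by 1.24 (edgeR adjusted p = 1.7e-09), CLSPN, which brings CHEK1 to ATR, by 0.90 (adjusted p = 4.7e-08) and the histone gene H2AFX by 0.76. TIPIN, RAD17 and MDC1 rose by 0.86, 0.77 and 0.59. In other end joining and the 53BP1 pathway 4 of 10 tested genes rose, among them SHLD2 (1.73 ± 0.09, adjusted p = 1.7e-14) and SHLD3 (1.00), both of the shieldin complex, and XRCC4 (1.57 ± 0.13, adjusted p = 1.5e-10), the partner of LIG4. PAXX and TP53BP1 fell by 0.48 and 0.34. Base excision and single-strand break repair had 8 of 21 higher and 5 lower, led by NEIL2 (0.77), PARG (0.69) and LIG3 (0.66) upward and by FEN1 (-0.88) and NTHL1 (-0.46) downward. In other translesion and reversal genes 5 of 10 rose, led by POLI (1.37), ALKBH3 (1.15) and ALKBH2 (0.71), and 1 fell, POLH (-0.72). Of 3 other mismatch repair genes, MSH3 rose (0.31, adjusted p = 0.0062) and the other two did not pass, and after the correction for GC content and length MSH3 did not pass either (0.17, adjusted p = 0.088).

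Many repair genes are known to be transcribed with the cell cycle, so a list of 20 proliferation genes was read beside them. Of these 15 fell and 2 rose, with a median log2 fold change of -0.68. Thus 85.0% passed, against 60.2% of all genes tested, of which 30.1% were lower and 30.1% higher. Their summed level was 3893 to 4106 CPM in siMock and 2647 to 2874 CPM in siFUBP1. The largest falls were CCNE2 (-1.62), RRM2 (-0.97) and MCM4 (-0.91), and the rises AURKB (0.83) and BUB1 (0.18). BUB1 passed at an adjusted p of 0.042, and the number of rises was 1 without siMock replicate 1 or 2 or without siFUBP1 replicate 1 or 3. In the same samples 17 of the 48 repair genes were lower, FANCA and MSH6 among them, and 12 were higher, among them BRCA2 and XRCC2. The part of the proliferation genes in the changes of the 48 genes was not tested.

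The study lists 3 siRNAs against FUBP1, and their guide strands are shown because a guide can also lower other transcripts that match its seed, bases 2 to 8, here in capitals.
RNAi#1: uAAACUGAaugcgaacacctt
RNAi#2: uAAGAGGUuugucagcacctt
RNAi#3: uUUCUUCUaugaguugccgtt
A full match to the seed followed by an A was sought in the 3′ UTR of 1 transcript per gene, for all 48 genes. For RNAi#1 it was found in ERCC4, ERCC6 and RAD18, 6.25% of the 48 genes against 4.37% of 12398 genes tested. RNAi#2 had a match in REV3L alone (2.08% against 2.24%). RNAi#3 matched XRCC2, FANCD2, ERCC4, ERCC6 and DDB1 (10.4% against 11.3%). Of the matched genes, ERCC4, ERCC6 and DDB1 fell, XRCC2, FANCD2 and RAD18 rose, and REV3L did not pass. ERCC4 held 1 match to RNAi#1 and 3 to RNAi#3, ERCC6 held 2 to each of these, and every other matched gene held 1. The part of seed matches in these changes was not tested. FANCA, the gene with the largest fall, had no such match to any of the 3 guides. Shorter matches, coding sequence and other transcripts of a gene were not searched. The reads were counted per gene, and the library protocol names no step that marks the strand, so reads of a gene cannot be told from those of a gene that overlaps it on the opposite strand. Of the 48 genes, 13 share more than 10% of their exonic bases with another gene.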

How the data were processed

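Poly(A) RNA of 3 siMock and 3 siFUBP1 samples of MG63 was sequenced, and groups were taken from the sample titles. The table of 58735 genes that the authors deposited gives unnormalised read counts, and the submitters' processing notes name HISAT2 2.0.5, StringTie 1.3.3b, featureCounts 1.5.0-p3 and DESeq2 1.16.1 without their settings. Its FPKM values are the authors' own, per gene length and depth. The signal columns deposited by the authors, taken to be group means of normalised counts, and the authors' deposited log2 fold changes and p-values from DESeq2 are their own comparison and were not used. Gene starts and ends match GENCODE release 29 (GRCh38) for all 58735 genes.

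The test was edgeR's robust quasi-likelihood F test (edgeR 4.0.16, R 4.3.3) after TMM scaling and edgeR's expression filter, and p-values were adjusted over 16116 genes by Benjamini-Hochberg. A gene passed at an adjusted p below 0.05. The standard error (SE) was derived from that test, as the absolute log2 fold change over the square root of F. CPM are counts per 1000000 of the TMM-scaled library, with factors of 0.959 to 1.05. The counts of a member lay between 40 and 11188 per sample. Every pair of samples within a group differed by more than the sampling noise (chi-square per gene at least 5.87). The tests were checked on simulated counts with known changes. Partner ratios used an exact permutation test. RefSeq gave the promoters, and the study's supplement the guides. Values in every sample are given for members past a 2-fold change, the largest rise and fall of each role and 10 fixed genes, and for some others chosen after their values were seen. Some items of the lists are not reported here. The members and all lists were chosen with earlier results of these data known. Alternatives were other scalings and filters, DESeq2 1.42.0, limma 3.58.1 on log2(FPKM + 1) and log2(FPKM + 0.1), an adjusted p below 0.01, the replicate number as a block, each sample left out, and offsets that remove a smooth trend (span 0.3, fitted where the mean count reached 50) on GC content and length.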

Additional observations from a re-analysis of the deposited data

How the results depend on the processing

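Over 16 alternatives, 688 of 768 values of the 48 genes kept direction and side of the threshold, 33 no longer passed, 17 newly passed and 30 changed sign. No gene that passed changed sign, and 20 of the 29 that passed did so throughout. The number of lower genes was 11 with library totals, 11 at an adjusted p below 0.01, 21 after the correction for GC content and length and 12 to 19 with 1 library left out. That of higher genes was 15, 12, 16 and 10 to 13 in the same order. After the correction PALB2, ERCC5, REV1, REV3L and LIG4 newly passed as lower and XRCC3, FANCC, SLX4, ERCC1 and ERCC2 as higher, while FANCG and XPA did not pass. The median log2 fold change of the 48 genes was -0.05, and 0.0493 with library totals and -0.12 after the correction. On log2(FPKM + 1), which shrinks low genes, RAD51B was at 0.37, RAD52 at 0.37 and ERCC4 at -0.47. With library totals FANCI was at -0.19, XRCC5 at -0.15 and PARP1 at -0.13. Among the other repair genes, the correction moved RAD51AP1 to -0.77, UBE2T to -0.75, FAAP100 to -0.65, SFR1 to 0.45, NTHL1 to -0.27 and PAXX to -0.27, and these still passed. Over 12356 genes the log2 fold change had a Spearman's rho of -0.238 with GC content, a description only.

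The 8 genes that changed sign lay near 0 and did not pass. With library totals PALB2 was at 0.0056, RAD51D at 0.060, RAD54L at 0.087, FANCM at 0.091, ERCC2 at 0.042 and CHEK1 at 0.057. With upper quartile scaling RAD51D was at 0.0062, RAD54L at 0.032, FANCM at 0.038 and CHEK1 at 0.0020. Without the filter RAD54L was at 0.00493 and FANCM at 0.010, and with limma FANCM was at 0.0016 (pseudocount 1) and 0.0020 (0.1). After the correction RAD51D was at 0.030, FANCB at -0.20 and ERCC2 at 0.19, where ERCC2 passed (adjusted p = 0.042). With 1 library left out values ranged from -0.0996 to 0.0159 for RAD51D, -0.118 to 0.0843 for RAD54L, -0.0510 to 0.2001 for FANCB, -0.0634 to 0.0621 for FANCM, -0.0140 to 0.1203 for XPC and -0.106 to 0.0185 for CHEK1. The number of proliferation genes that rose was 1 to 2. The causes were not tested.

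The labels do not say whether the replicate numbers pair the samples. Deviations of same-numbered samples correlated at 0.028, 0.048 and 0.24, and those of differently numbered samples at -0.19 to 0.146, which does not settle it. With the replicate number as a block, 18 of the 48 genes were lower and 12 higher, REV3L being the added one (adjusted p = 0.021), and among all genes 5001 were lower and 5013 higher, against 4851 and 4844. The block changed no other call among the 48 genes. Genes under 10 CPM, such as RAD51B, RAD52, ERCC5 and FANCF, carry the largest standard errors.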
